A study of Mus musculus with 9 samples.

Results

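The genes described here are the 9 members of a fixed list of heme synthesis and mitochondrial iron import genes: Alas2, Alad, Uros, Urod, Cpox, Ppox and Fech, which encode enzymes of the pathway, and Abcb10 and Slc25a37, which encode the iron import partners of the mitochondrial inner membrane. They were chosen by name, and for each the brightest probe set annotated to that gene alone, by its mean of the 9 arrays, was read, which gave 9 of 18194 genes with a value. Whole blood RNA of C57BL/6 mice, aged 8 to 9 weeks and weighing about 25 g, was measured on 9 microarrays, 1 for each animal. The 3 Ctrl mice were not manipulated and were bled directly after anesthesia had been induced. The 3 mice with polytrauma (PT) received a head injury, a closed fracture of the femur with damage to the surrounding soft tissue, and a blunt trauma to both sides of the chest, and were bled 4 h after trauma. In the 3 mice with polytrauma and hemorrhagic shock (PT+HS), blood was additionally withdrawn from 1 h after trauma, a mean arterial pressure of 30 mmHg was held for 60 min, and an electrolyte solution of 4 times the drawn volume was given over 30 min before sampling at the same 4 h. Sevoflurane anesthesia, kept up throughout in the injured mice, was shared by all groups, whereas buprenorphine and vascular catheters belonged to the trauma groups and norepinephrine was given as needed to hold the pressure. Ctrl and the trauma groups therefore differed in the time under anesthesia and in instrumentation as well as in injury, and the parts of these cannot be told apart. The paper gives a norepinephrine dose only for the PT+HS mice. In PT+HS against PT the parts of hemorrhage, fluid and this drug cannot be told apart.

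Heme is an iron-carrying ring that is built partly in the mitochondrion and partly in the cytosol. ALAS2, the enzyme of red cell precursors, makes the starting compound inside the mitochondrion, the middle steps run in the cytosol, and the pathway returns to the mitochondrion, where ferrochelatase (FECH) inserts iron. Iron reaches this last step through mitoferrin-1, the product of Slc25a37, which ABCB10 binds and stabilises. In blood, mature red cells of mice hold no nucleus, and RNA of this pathway is carried largely by young red cells, which the lysis of whole blood leaves in the sample together with leukocytes and platelets. In such bulk samples fewer cells of a type and less RNA per cell cannot be told apart.

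The arrays of 8 mice correlated with each other at r of at least 0.958 over all genes, whereas PT replicate 2 stood apart, at 0.900 to 0.944 with the others. The differences of the 9 genes between PT and Ctrl are given with it and, further on, without it. Markers of the blood cells were present: the summed level of 8 platelet markers, given as their mean log2 value, ranged from 10.04 to 10.65 over the arrays, that of 9 neutrophil markers from 6.98 to 9.67 and that of 16 red cell precursor markers from 6.69 to 7.74. The probe set of Hba-a1, an adult alpha-globin gene and a defining red cell transcript, read only 3.01 to 3.84, below the median of the gene means of 4.29, in all 3 groups. On the same arrays the band 3 gene Slc4a1, also a red cell marker, read 11.77 to 12.56. The Hba-a1 probe set is therefore not taken as a measure of globin RNA, although it is counted among the 16 markers.

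None of the 9 genes differed between the groups by 1.5-fold or more together with an unadjusted p under 0.05, the thresholds of the study. This held for PT against Ctrl, where 3.67% of all genes passed, for PT+HS against Ctrl, where 3.28% passed, and for PT+HS against PT, where 1.12% passed. No member had an unadjusted p under 0.05, and the p-values adjusted over all genes by limma lay between 0.938 and 1.0. Of all 18194 genes, 0, 1 and 0 had an adjusted p under 0.05 in these comparisons. Nearly all other genes therefore also stayed above it. The median log2 difference of the 9 members was 0.01 in PT, -0.05 in PT+HS and -0.07 between the injured groups, beside -0.00, -0.01 and -0.00 over all genes. In the probe sets used, the values of the compared groups overlapped for 9 of 9 members in each comparison. The shares of all genes whose groups did not overlap were 9.44%, 13.2% and 7.17%.

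**Figure D1:**
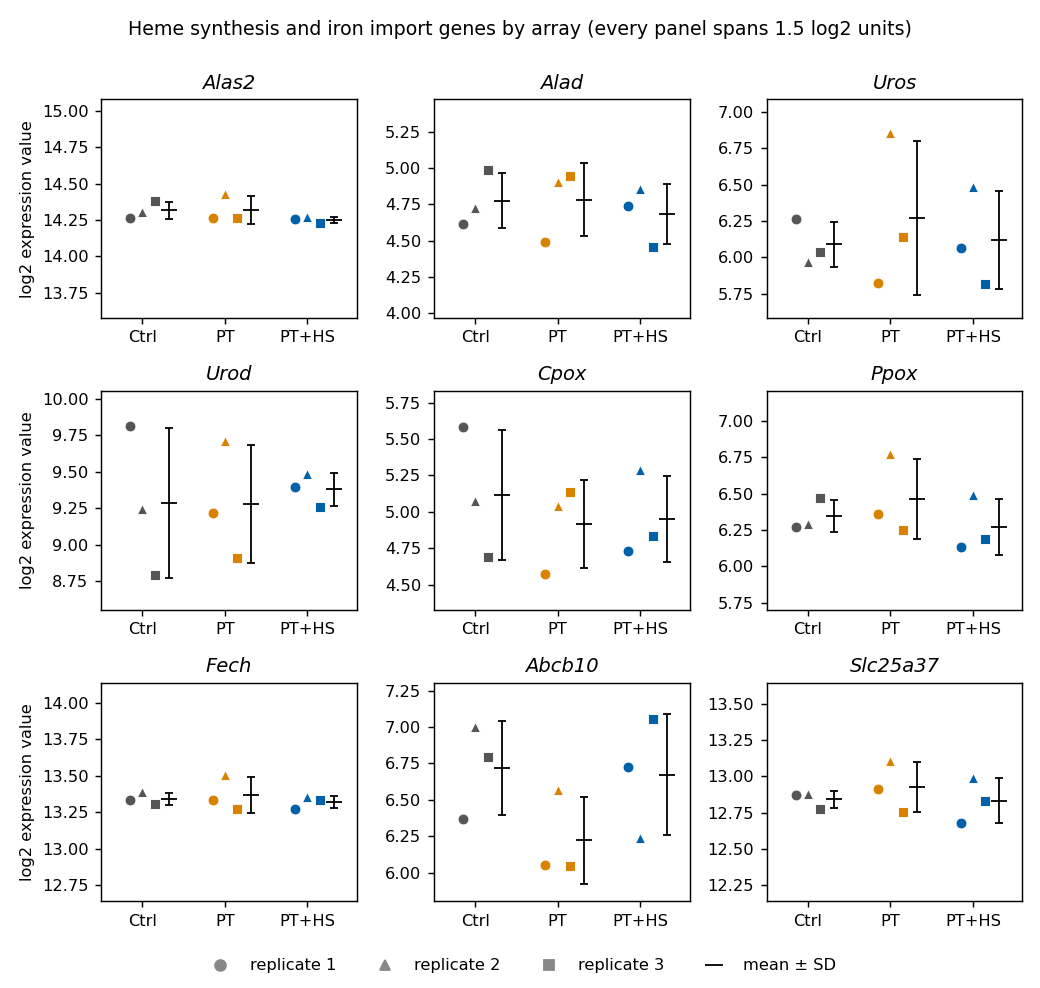
Log2 signal of each of the 9 genes (a panel each, all spanning the same log2 range at different heights) by group, with a point for each array and the group mean with its SD (n = 3) beside the points. The groups overlap in all 9 panels, and PT replicate 2 is the highest array for 5 genes.

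Alas2 encodes the rate-limiting enzyme of heme synthesis in red cells. Its log2 signal was 14.27, 14.30 and 14.38 in Ctrl replicates 1 to 3, 14.27, 14.43 and 14.26 in PT, and 14.26, 14.27 and 14.23 in PT+HS. The 9 values stayed within 0.203 of each other, and the 3 PT+HS values reached no higher than 14.27. PT minus Ctrl was 0.00 (SE 0.14, 95% interval -0.32 to 0.32) and PT+HS minus Ctrl was -0.07 (95% interval -0.38 to 0.25), so that neither interval reached a 1.5-fold change, which is 0.585 on this scale. The gene sat close to the highest signal found on any array, 14.7, and had rank 1 among all genes on every array. When the arrays were quantile normalized once more its differences became 0.00 in each comparison. This was fixed in advance, because the step gives the top gene of every array the same value. No conclusion is drawn from it. How far this upper end of the scale limited the differences that could be seen was not tested.

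The cytosolic steps were followed through Alad, Uros and Urod. Alad encodes the dehydratase that joins the starting compound into a pyrrole, and its log2 signal was 4.62, 4.72 and 4.99 in Ctrl, 4.49, 4.90 and 4.94 in PT, and 4.74, 4.86 and 4.46 in PT+HS. Uros encodes the synthase that closes the ring in its asymmetric form, and its values were 6.26, 5.97 and 6.03 in Ctrl, 5.82, 6.86 and 6.14 in PT, and 6.06, 6.48 and 5.81 in PT+HS. The widest spread of Uros was that of the PT mice, with an SD of 0.529 against 0.153 in Ctrl and 0.223 without PT replicate 2, and both ends of its PT values lay outside the Ctrl values. Urod encodes the decarboxylase that follows, and it read 9.82, 9.24 and 8.79 in Ctrl, 9.22, 9.71 and 8.91 in PT, and 9.40, 9.48 and 9.25 in PT+HS. For Urod the Ctrl mice spanned the values of all 6 injured mice. The differences from Ctrl were 0.01 in PT and -0.09 in PT+HS for Alad, 0.18 and 0.03 for Uros, and -0.00 and 0.10 for Urod.

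Cpox and Ppox encode the pair of oxidases that prepare the ring for iron in the mitochondrion. Cpox had a log2 signal of 5.58, 5.07 and 4.69 in Ctrl, 4.57, 5.04 and 5.14 in PT, and 4.73, 5.29 and 4.83 in PT+HS. The highest Cpox value was that of a Ctrl mouse, and the PT mice differed from it by -0.20 and the PT+HS mice by -0.17 in their means, both smaller than the SD of 0.446 among the Ctrl mice. Ppox read 6.27, 6.29 and 6.47 in Ctrl, 6.36, 6.77 and 6.25 in PT, and 6.14, 6.49 and 6.19 in PT+HS. For Ppox the differences were 0.12 and -0.07.

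Fech, the gene of ferrochelatase, which closes the pathway, had a log2 signal of 13.33, 13.39 and 13.30 in Ctrl, 13.34, 13.51 and 13.27 in PT, and 13.27, 13.35 and 13.34 in PT+HS. The difference from Ctrl was 0.03 (95% interval -0.30 to 0.35) in PT and -0.02 (95% interval -0.35 to 0.30) in PT+HS, and PT+HS minus PT was -0.05 (95% interval -0.37 to 0.27). Slc25a37, the gene of mitoferrin-1, read 12.87, 12.88 and 12.78 in Ctrl, 12.91, 13.10 and 12.76 in PT, and 12.68, 12.99 and 12.83 in PT+HS. Its PT and PT+HS values enclosed the narrow Ctrl range on both sides, and the differences from Ctrl were 0.08 (95% interval -0.28 to 0.45) and -0.01 (95% interval -0.37 to 0.35). Like Alas2, both genes read near the upper end of the array's range, and the limit that this sets on their differences was not tested.

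Of the 27 intervals, 3 for each of the 9 genes, 14 stayed within a 1.5-fold change in either direction. By comparison these were 5 of 9 in PT against Ctrl, beside 31.6% of all genes, 5 of 9 in PT+HS against Ctrl, beside 32.8%, and 4 of 9 in PT+HS against PT, beside 33.0%. Alas2, Alad, Fech and Slc25a37 stayed within it in each comparison, and Ppox did so against Ctrl but not between the injured groups, where the interval was -0.61 to 0.23. Alad read low, with a mean of 4.75 beside a median of the gene means of 4.29. The limit that this sets on its differences was not tested. For Uros, Urod, Cpox and Abcb10 at least part of each interval lay beyond it, so that a 1.5-fold difference was not excluded for these genes. The interval of Uros in PT reached from -0.43 to 0.80, that of Urod from -0.63 to 0.63 and that of Cpox from -0.79 to 0.39.

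**Figure D2:**
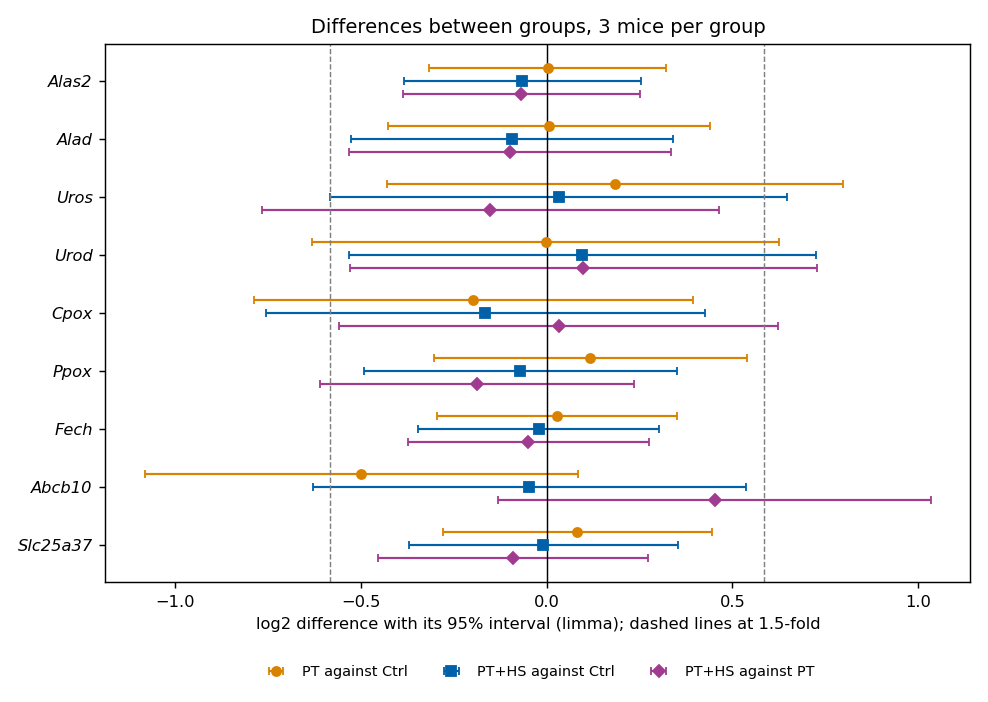
Log2 differences of the 9 genes between groups (horizontal axis) with their 95% intervals from limma (n = 3 animals a group), 1 marker for each comparison, with lines at 0 and at 1.5-fold. Every interval spans 0, and the largest difference is that of Abcb10 in PT, at -0.50.

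The genes differed in how closely the mice of a group matched. The pooled within-group SD was 0.0658 for Alas2, 0.0783 for Fech and 0.138 for Slc25a37, then 0.204 for Ppox and 0.217 for Alad, and between 0.348 and 0.385 for Abcb10, Cpox, Uros and Urod. The median over the 9 genes was 0.217, and that over all genes was 0.287. For 6 of the 9 genes the PT mice had the largest SD of the 3 groups, and for 2 without PT replicate 2.

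Abcb10 showed the largest difference among the 9 genes. Its log2 signal was 6.37, 7.00 and 6.80 in Ctrl, 6.05, 6.57 and 6.05 in PT, and 6.73, 6.23 and 7.06 in PT+HS. A pair of PT mice lay below every Ctrl and PT+HS mouse, while PT replicate 2 lay among them. PT minus Ctrl was -0.50 (SE 0.26, 95% interval -1.08 to 0.08, adjusted p = 0.938 by limma), PT+HS minus PT was 0.45 (95% interval -0.13 to 1.04), and PT+HS minus Ctrl was -0.05 (95% interval -0.63 to 0.54).

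The reading of Abcb10 depended on single arrays and on the probe set. Without PT replicate 2 it passed the thresholds in both comparisons, at -0.67 in PT against Ctrl (adjusted p = 0.468 by limma) and 0.62 in PT+HS against PT (adjusted p = 0.657 by limma). It also passed in PT against Ctrl without Ctrl replicate 1, at -0.68 (adjusted p = 0.999 by limma), and in PT+HS against PT without PT+HS replicate 2, at 0.67. In each of these fits the adjusted p stayed above 0.05.

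The other probe sets of Abcb10 differed in sign but were dim, with means of 4.44 for 1454265_a_at and 3.91 for 1416403_at beside a median of the gene means of 4.29. The probe set used, 1416402_at, gave -0.50 in PT, whereas 1454265_a_at gave 0.27 and 1416403_at gave 0.38. Set 1454265_a_at read 4.53, 4.50 and 3.85 in Ctrl and 5.15, 4.50 and 4.06 in PT, and set 1416403_at read 3.79, 4.00 and 3.49 in Ctrl and 3.77, 4.99 and 3.64 in PT. The higher PT mean of 1416403_at rested on PT replicate 2, and that of 1454265_a_at on PT replicate 1. With the mean of the 3 probe sets the differences were 0.05 in PT and 0.01 between PT+HS and PT.

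**Figure D3:**
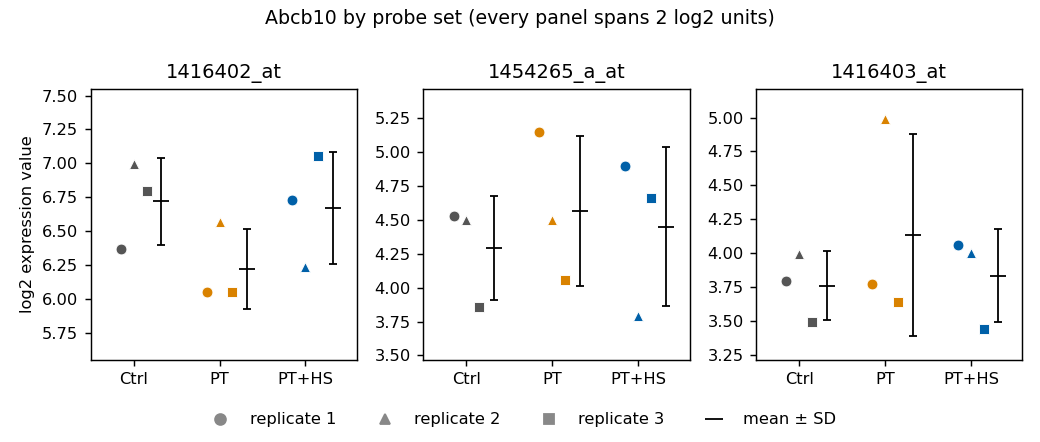
Log2 signal of the 3 Abcb10 probe sets on the 9 arrays (points), by group, with group means (n = 3). In PT the mean of 1416402_at, the probe set used, is below Ctrl by 0.50, and those of the other probe sets are above it by 0.27 and 0.38.

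Other members also had several probe sets. A total of 21 probe sets were annotated to a member alone, and 1 more, which names Slc25a37 together with another gene, was left out. For Fech, 1418698_a_at and 1449181_at differed from Ctrl by -0.03 and 0.01 in PT and by -0.09 and -0.20 in PT+HS, while a dim set, 1427696_at with a mean of 4.19, differed by -0.24 and -0.45. On 1449181_at, with a mean of 12.35, the PT+HS mice read 12.09, 12.29 and 12.28. These values lay below every Ctrl and PT mouse, whereas the groups overlapped on the set used and on 1418698_a_at. PT+HS also lay wholly below Ctrl on Alad 1457306_at, and wholly below PT on Ppox 1448065_at and Uros 1440535_at, all dim sets. With 1 set per gene, 13.2% of all genes did not overlap in PT+HS against Ctrl and 7.17% in PT+HS against PT. The share over all probe sets was not computed. The dim Ppox sets 1441862_at and 1448065_at, with means of 4.16 and 3.32, gave -0.58 and -0.28 in PT+HS, where the set used gave -0.07. The Urod set used, 1443849_x_at, is of a class that can share sequence with other transcripts, and its partner 1417206_at gave -0.00 and 0.04 in the same comparisons. For Alad, 1457306_at, with a mean of 4.02, gave -0.53 in PT+HS against Ctrl, where the set used gave -0.09. In PT+HS against PT 1457306_at gave -0.65, which is beyond 1.5-fold, where the set used gave -0.10.

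Erythroid genes of heme synthesis are known targets of GATA1, a zinc finger factor that reads the letters GATA with their flanking bases. The 250 bases before each start in RefSeq (mouse build GRCm38.p6) were searched on both strands for AGATAA, for AGATAG, for TGATAA and for TGATAG. The table held 9 such windows for 7 of the members and none for Fech or Slc25a37. A match was present in 3 of the 9 windows and in 26.5% of the 32851 windows of all genes, and nothing particular to the members is read from this. The 3 windows with a match are shown because they carry the letters that this factor reads, with the matches in capitals, each 5′ to 3′ on the strand of its gene, and a match says nothing of binding in these samples.
Alas2, chrX:150547167-150547416, plus strand: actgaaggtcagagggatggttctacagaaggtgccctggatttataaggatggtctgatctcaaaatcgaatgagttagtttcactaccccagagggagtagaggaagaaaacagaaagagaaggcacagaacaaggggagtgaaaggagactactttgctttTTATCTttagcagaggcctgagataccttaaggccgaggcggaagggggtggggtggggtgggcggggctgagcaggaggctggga
Uros, chr7:133702501-133702750, minus strand: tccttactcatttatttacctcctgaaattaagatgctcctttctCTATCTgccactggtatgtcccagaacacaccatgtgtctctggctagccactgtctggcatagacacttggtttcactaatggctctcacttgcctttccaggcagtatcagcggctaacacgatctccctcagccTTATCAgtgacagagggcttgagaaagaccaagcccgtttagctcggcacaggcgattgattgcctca
Cpox, chr16:58669958-58670207, plus strand: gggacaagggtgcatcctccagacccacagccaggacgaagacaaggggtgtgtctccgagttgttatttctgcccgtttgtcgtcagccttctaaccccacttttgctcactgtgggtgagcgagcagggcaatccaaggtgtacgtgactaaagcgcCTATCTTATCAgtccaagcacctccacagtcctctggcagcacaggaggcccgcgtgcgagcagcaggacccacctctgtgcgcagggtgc
The match of Alas2 began 86 bases before the start and those of Uros 205 and 68 bases before it. In Cpox 2 matches began 91 and 86 bases before the start and overlapped. Among these genes Alas2 and Cpox have no other window in the table, whereas a further Uros window and those of Alad, Urod, Ppox and Abcb10 held no match. GATA1 itself, read from Gata1, ranged from 6.98 to 8.52 in Ctrl, 7.28 to 7.90 in PT and 7.63 to 8.49 in PT+HS. Of 10 erythroid transcription factors, 0 passed the thresholds in any of the 3 comparisons, beside 3.67%, 3.28% and 1.12% of all genes. Tal1, a partner of GATA1 in red cell precursors, read 8.07, 7.72 and 7.59 in Ctrl, 7.55, 6.90 and 7.47 in PT, and 8.25, 7.30 and 7.77 in PT+HS. The PT mice were below all Ctrl mice, but the difference of -0.49 (95% interval -1.10 to 0.12) did not pass. Lmo2, an adaptor between them, differed by -0.25 and -0.38.

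Red cell precursor markers were set beside the heme genes. Of 16 measured markers, 0 passed in each comparison, beside 3.67%, 3.28% and 1.12% of all genes. Among the markers were the band 3 gene Slc4a1, the ankyrin gene Ank1 and the erythropoietin receptor gene Epor. The median log2 difference of the 16 markers was 0.16 in PT, 0.08 in PT+HS and -0.07 between the injured groups. The medians that involve PT include PT replicate 2, where the markers lay on average 0.60 above their means over all arrays. On PT replicates 1 and 3 they lay at -0.14 and -0.31, and on Ctrl replicates 1 to 3 at 0.20, 0.04 and -0.44. The marker medians without PT replicate 2 were not computed. Car1, a carbonic anhydrase gene of red cells, differed from Ctrl by -0.29 in PT and 0.01 in PT+HS. The only unadjusted p under 0.05 among the markers was that of Hba-a1 in PT+HS, at 0.42, which is below 1.5-fold. Its probe set read below the median of the gene means, so no rise of globin RNA is read from it.

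The mean of the 9 genes correlated with the mean of the markers at r = 0.85 over the 9 arrays and at 0.68 without PT replicate 2, a description over arrays that share their normalization. The single genes ranged widely, from 0.90 for Urod, 0.82 for Fech and 0.78 for Slc25a37 to 0.33 for Alas2, 0.00 for Abcb10 and -0.04 for Alad. Without PT replicate 2, Urod was at 0.94, Cpox at 0.64 and Fech and Slc25a37 at 0.56, whereas Ppox was at -0.09 after 0.54 with it, Abcb10 was at -0.03, Alad at -0.41 and Alas2 at -0.50. On PT replicate 2 the 9 genes lay on average 0.25 and the markers 0.60 above their means over all arrays. That array was the highest of the 9 for 5 of the 9 genes (Alas2, Uros, Ppox, Fech and Slc25a37) and for 10 of the 16 markers, beside 22.4% of all genes. Without it PT minus Ctrl was below 0 for 9 of the 9 genes, beside 3 with it: Alas2 -0.05, Alad -0.06, Uros -0.11, Urod -0.22, Cpox -0.26, Ppox -0.04, Fech -0.04, Abcb10 -0.67 and Slc25a37 -0.01. The sign turned for 6 of them, and none of the 6 passed. The markers also lay below their means on PT replicates 1 and 3, at -0.14 and -0.31. With PT replicate 2 included, 9108 of all 18194 genes were below 0 in PT against Ctrl. The share without it was not computed, so nothing particular to the members is read from the sign count. Without this array the median difference of the 9 genes was -0.06 in PT against Ctrl and 0.02 in PT+HS against PT, and Abcb10 was the single member that passed.

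**Figure D4:**
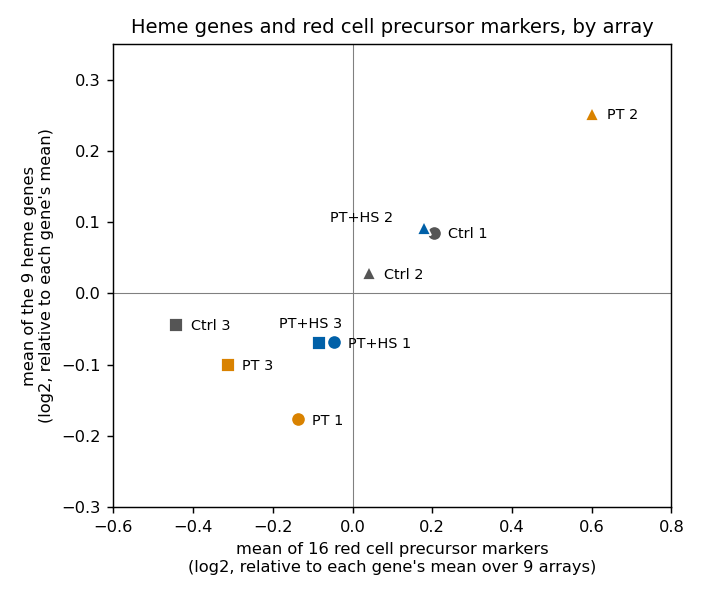
Mean of the 9 heme genes (vertical) against the mean of 16 red cell precursor markers (horizontal), both as log2 deviation from each gene's mean over the 9 arrays, with a point for each array. PT replicate 2 lies farthest out, at 0.60 and 0.25. PT replicates 1 and 3 are the lowest arrays on the vertical axis, at -0.18 and -0.10. On the horizontal axis they lie within the range of the Ctrl arrays, at -0.14 and -0.31.

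Of 16 further measured genes of heme synthesis, transport and regulation, 0 passed in any comparison, beside 3.67%, 3.28% and 1.12% of all genes. Slc25a39, which encodes the glutathione carrier of the mitochondrial inner membrane, varied only between 13.77 and 13.88 over the 9 mice, with a PT mean of -0.04 and a PT+HS mean of 0.01 relative to Ctrl, but it too read near the upper end of the range. Alas1, the housekeeping counterpart of Alas2 that leukocytes and other tissues use, read 5.32, 4.25 and 5.36 in Ctrl, 6.78, 5.70 and 5.07 in PT, and 5.79, 5.48 and 6.72 in PT+HS. All 3 PT+HS mice were above all Ctrl mice, whereas PT overlapped with Ctrl. The differences of Alas1 were 0.87 (SE 0.48) in PT and 1.02 (SE 0.48) in PT+HS, which did not pass, and whether they differed from those of Alas2 was not tested. Abcg2, an exporter of porphyrins, differed by 0.29 and 0.19.

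Iron-sulfur clusters are the other main product of mitochondrial iron. Of 11 measured genes of their assembly, 1 passed in PT, 0 in PT+HS and 0 between the injured groups, beside 3.67%, 3.28% and 1.12% of all genes. The gene that passed was Lyrm4, whose product stabilises the cysteine desulfurase of the assembly complex, at 5.44, 4.70 and 5.71 in Ctrl, 6.29, 5.67 and 6.40 in PT, and 5.64, 5.88 and 5.53 in PT+HS. PT and Ctrl overlapped by 1 mouse, and the difference of 0.83 (SE 0.28, adjusted p = 0.728 by limma) no longer passed without Ctrl replicate 2, PT replicate 1 or PT replicate 3. Hspa9, the mitochondrial chaperone that helps to release new clusters, read 6.74, 6.44 and 6.44 in Ctrl and 6.77, 7.23 and 6.87 in PT, groups that did not overlap, but its difference of 0.42 was below 1.5-fold. Glrx5, which hands new clusters on, differed from Ctrl by -0.06 and -0.04.

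Of 13 measured genes of iron uptake, storage and sensing, 1 rose in PT, 2 rose in PT+HS, 0 fell, and 0 passed between the injured groups, beside the 3.67%, 3.28% and 1.12% of all genes that passed. No adjusted p among them was below 0.314. Fbxl5, whose product marks iron regulatory protein 2 for degradation when iron is ample, read 7.49, 6.64 and 7.18 in Ctrl, 9.56, 7.92 and 8.84 in PT, and 9.30, 8.47 and 9.44 in PT+HS. Every injured mouse was above every Ctrl mouse. The difference was 1.67 (SE 0.42, adjusted p = 0.466 by limma) in PT and 1.96 (SE 0.42, adjusted p = 0.314 by limma) in PT+HS, and PT+HS minus PT was 0.30 (95% interval -0.64 to 1.23).

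Slc40a1, the gene of the iron exporter ferroportin, read 6.55, 6.39 and 6.28 in Ctrl, 6.79, 5.59 and 8.17 in PT, and 8.60, 6.88 and 8.29 in PT+HS. All PT+HS mice were above all Ctrl mice, while the PT mice lay on both sides of them. The difference in PT+HS was 1.51 (SE 0.60, adjusted p = 0.940 by limma), and the call was lost when any single Ctrl array, PT+HS replicate 1 or PT+HS replicate 3 was left out. Tfrc, the gene of the transferrin receptor through which red cell precursors take up iron, differed from Ctrl by -0.14 in PT and -0.79 in PT+HS and did not pass. Fth1, the ferritin heavy chain gene, differed by -0.08 and -0.01.

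Among 7 genes of heme breakdown and heme sensing, 1 passed in PT and 1 in PT+HS, beside 3.67% and 3.28% of all genes. The gene that passed was Bach1 both times. BACH1 is a repressor that loses its hold on DNA when it binds heme, and the heme oxygenase gene Hmox1 is its best known target. Bach1 read 6.66, 6.20 and 6.28 in Ctrl, 7.91, 6.53 and 7.05 in PT, and 7.50, 7.20 and 7.72 in PT+HS, so that PT+HS lay wholly above Ctrl and PT overlapped it. The difference was 1.10 (SE 0.32, adjusted p = 0.629 by limma) in PT+HS. In PT it was 0.78 (adjusted p = 0.816 by limma), and this call was lost without Ctrl replicate 2, Ctrl replicate 3 or PT replicate 1. Hmox1 differed from Ctrl by 0.60 in PT (95% interval -0.06 to 1.26) and 0.63 in PT+HS (95% interval -0.03 to 1.29) and did not pass.

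Fbxl5, Bach1 and Slc40a1 passed in samples whose leukocyte markers also differed. Of 9 neutrophil markers, 4 rose in PT and 5 in PT+HS, beside 3.67% and 3.28% of all genes that passed in either direction. The most changed was the collagenase gene Mmp8 at 4.18 and 4.75, followed in PT+HS by the chemokine receptor gene Cxcr2 at 1.46 and 1.99. The mean of the 9 ranged from 6.98 to 8.54 in Ctrl, 7.87 to 9.26 in PT and 8.37 to 9.67 in PT+HS. All 5 B cell markers (Ms4a1, Cd79a, Cd79b, Cd22 and Blk) fell in both comparisons with Ctrl, by medians of -1.63 and -1.50. Of 8 platelet markers, 1 fell in PT, Gp5 at -0.72, and 0 passed in PT+HS. All 8 had a negative difference in PT, with a median of -0.38, and for 7 of 8 the PT and Ctrl mice did not overlap, beside 9.44% of all genes. The part of these cell types in the differences of Fbxl5, Bach1 and Slc40a1 was not tested.

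**Figure D5:**
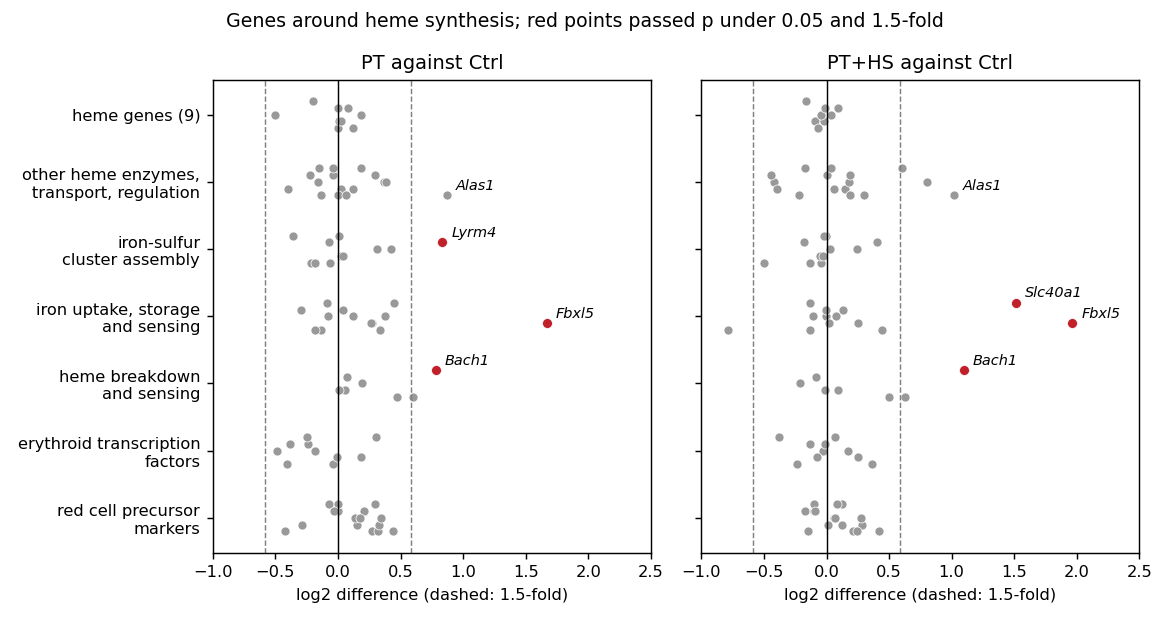
Log2 differences from Ctrl (horizontal axis) of the genes of each list in PT and PT+HS, with a point for each gene; red points passed an unadjusted p under 0.05 and 1.5-fold. The 9 heme synthesis genes lie between -0.50 and 0.18, and Fbxl5 lies farthest right, at 1.67 and 1.96.

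The genes whose pattern over the 9 arrays was most like the mean of the 9 heme genes, by Pearson's r among all genes outside the lists, were Glo1, Homer3, Hils1, Ankrd39, Krt86, Afmid, Nr4a2, Cyp3a11, Panx2 and Rgs9. Their r ran from 0.98 for Glo1, the glyoxalase gene, to 0.94 for Rgs9. Without PT replicate 2 it was between 0.87 and 0.95. These genes were picked as the highest of all correlations on the same few arrays. High values with and without PT replicate 2 therefore follow from the choice, and no shared regulation is read from them. Each of these 10 differed from Ctrl by less than the 1.5-fold threshold, with Glo1 at -0.03 in PT and -0.09 in PT+HS.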

How the data were processed

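The authors hybridised whole blood RNA to Affymetrix arrays and deposited log2 signals after robust multiarray averaging, which puts all arrays on 1 intensity distribution. Differences are therefore relative to the whole array, and a shift common to most genes would not show. The array type the methods name differs from the one whose probe set names are used, and annotation followed the latter. Of 45101 probe sets, 34958 had 1 gene symbol, 932 several and 9211 none. No detection calls were used, and array medians lay between 3.63 and 3.76.

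One mean per group was fitted over the 9 arrays in limma 3.58.1 (R 4.3.3), with Benjamini-Hochberg adjustment over 18194 genes and 95% intervals from the moderated test. A gene passed at an unadjusted p under 0.05 and 1.5-fold. The procedure was tested on simulated data. These were drawn independently for each gene, with no deviating array and no upper limit of the signal. The simulation therefore does not address PT replicate 2 or the genes near the upper end of the range. Array number limits precision. The p-values and intervals rest on the spread between mice within groups, pooled over the 3 groups and moderated by that of all genes. For genes with a small SD, such as Alas2 and Fech, this makes the intervals wider than their own spread would. The labels name no scan date or batch.

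The members and lists were chosen with earlier results of these data known. The named genes were all members, the genes with the smallest p in each other list, and the 10 highest correlations for likeness. Gata1, Slc4a1, Ank1, Epor, Slc25a39, Glrx5, Tfrc and Fth1 were named for their roles after their values were seen. Genes of the lists without a probe set of their own, such as the beta-globin genes, were not analysed here. As context, 0 of 5 T cell markers passed in each comparison, 2, 1 and 1 of 4 NK cell markers, and 3, 2 and 1 of 5 monocyte markers. Over all genes the shares were 3.67%, 3.28% and 1.12%.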

Additional observations from a re-analysis of the deposited data

How the results depend on the processing

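No member passed in PT+HS against Ctrl under any alternative run. Abcb10 alone moved the other counts: with array weights, 1 member passed in PT against Ctrl (-0.67, adjusted p = 0.123 by limma) and 1 in PT+HS against PT (0.61, adjusted p = 0.241), and with single arrays left out the counts ranged from 0 to 1 in both. These arrays were Ctrl replicate 1 and PT replicate 2 for the first comparison, and PT replicate 2 and PT+HS replicate 2 for the second. Array weights also moved the members' median to -0.10 and 0.13 in these comparisons, and gave PT replicate 1 a weight of 4.96 against 0.227 for PT replicate 2. With single arrays left out the medians ranged from -0.06 to 0.08 in PT against Ctrl, from -0.09 to -0.00 in PT+HS against Ctrl and from -0.13 to 0.02 in PT+HS against PT.

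With a replicate block 0 members passed in each comparison, while all genes passing went from 668 to 743, from 596 to 693 and from 204 to 264, and it changed no call of a member. The numbers share no stated origin: deviations of same-numbered arrays correlated at -0.12 to 0.48, and 4 of 9 arrays were closest to their own number. Of the genes named from other lists, Fbxl5 in both comparisons with Ctrl and Bach1 in PT+HS passed under every alternative. Bach1 in PT also lost its call with the mean of its probe sets (0.40), the methods' t-test and the arrays of the 2 groups only, and Lyrm4 lost its call with the methods' t-test. No call of a named gene changed direction. Of 513 recomputed differences of the members, which had no call as reported, 50 changed sign, reaching at most 0.264 in size. Among them were Uros in PT against Ctrl (-0.19 with array weights, -0.11 without PT replicate 2), Abcb10 (0.05 with the mean of its probe sets) and Fech (-0.06 with the mean of its probe sets). The cause of these changes was not tested. Several alternatives could not change a member's difference. These were the methods' t-test, genes above the median, arrays of the 2 groups only, the variance trend and the replicate block. Leaving out an array of the group not compared could not change it either. The 513 include all of these, so the share that changed sign is no measure of stability. With 3 mice a group, the intervals of Uros, Urod, Cpox and Abcb10 do not exclude 1.5-fold differences.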
